A study of Mus musculus with 22 samples.

Results

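Phase II conjugation enzymes were followed in whole liver of mice with autoimmune liver disease. They were taken as every gene whose symbol places it in the UDP-glucuronosyltransferases (Ugt1a, Ugt2a, Ugt2b and Ugt3a), the soluble glutathione S-transferases (Gsta, Gstm, Gstp, Gstt, Gstz, Gstk and Gsto) or the cytosolic sulfotransferases (Sult1 to Sult5). The rule found 61 of 24786 genes, namely 20 UGT, 22 GST and 19 SULT members. RNA was sequenced in bulk from 22 samples, of which 6 livers carry the comparisons here. These were 2 livers each of Aire+/+ mice, of TG Aire-/- mice and of TG Aire-/- mice depleted of CD8+ T cells. TG stands for dnTGFβRII in the series title, a dominant-negative TGF-β receptor II that is expressed in T cells, and Aire drives the display of tissue antigens in the thymus. All 6 livers were C57BL/6, were labelled 2 to 4 weeks old and carried batch number 2. The controls were called littermates by the submitters and were labelled as untreated, with neither the transgene nor the Aire deletion. The labels do not give an Aire-/- or a TG liver alone within this batch, so the transgene and the deletion cannot be told apart. They do not state how the depletion was done or whether replicates were separate animals, so p-values reflect nothing beyond the scatter of these libraries, and that scatter may be technical.

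Conjugation makes hydrophobic compounds soluble by attaching a polar group. UGTs transfer glucuronic acid from UDP-glucuronic acid to bilirubin, steroids, bile acids and drugs. GSTs couple glutathione to electrophiles, and SULTs transfer sulfate from PAPS to steroids, bile acids and phenols. Hepatocytes are the main site of all these reactions, and the genes are known targets of liver transcription factors such as HNF4, of xenobiotic receptors (CAR, PXR, AHR) and, for many GSTs, of the oxidant sensor NRF2.

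The livers had 20300000 to 22700000 reads as inferred from the values, and 9761 to 12441 genes reached 1 RPKM (the deposited unit, reads scaled to gene length and library size). Defining hepatocyte markers were present in every liver, with summed levels of 91480 and 87995 RPKM in Aire+/+, 60131 and 38731 in TG Aire-/- and 88886 and 66063 in depleted livers. Of 14 such markers 3 were lower in TG Aire-/-. In a bulk sample fewer cells of a type and less RNA per cell cannot be told apart. Cd8a was at 0.161 and 0.220 RPKM in Aire+/+, at 8.76 and 3.75 in TG Aire-/-, and listed at 0 and 0.187 after depletion. The Aire deletion cannot be checked from the liver values. Values in TG Aire-/- livers were shifted upwards over all genes: the median difference of the 12231 genes tested was 0.53 on the log2(RPKM + 1) scale, and −0.58 for depleted against TG Aire-/-. Values of members are to be read against those shifts. By Xist and Y-linked genes the Aire+/+ and TG Aire-/- groups each held 1 male and 1 female library, while both depleted libraries were male. Differences with the depleted group therefore move with sex, and a fit with sex as a covariate is given where it ended a call.

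Of the 61 members 50 reached 1 RPKM in at least 2 of the 6 livers and were tested: 18 UGT, 20 GST and 12 SULT genes. Of these, 3 passed through 1 group only, Sult2a4 and Sult2a6 through the Aire+/+ livers and Ugt2b37 through the depleted ones. A gene that passes in this way has to differ, so the calls of those genes are no support and counts are also given without them. The 11 below that level were Ugt2a1, Ugt2a2, Gsto2, Gstt4, Sult1c1, Sult1e1, Sult2a7, Sult2b1, Sult3a1, Sult3a2 and Sult4a1. The 8 Ugt1a genes are alternative first exons of a single locus on chromosome 1 that share their last exons: a common run of 1313 bases makes up at least 39.8% of the longest coding transcript of each. Their values moved as 1 measurement and are counted as such where stated. Other members with near-identical copies are uncertain as single genes. Sult2a2 shares 62.1% of its 50-base sequences with other members, Gstp2 shares 49.1%, Gsta1 46.6% and Ugt2b5 41.7%.

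**Figure D1:**
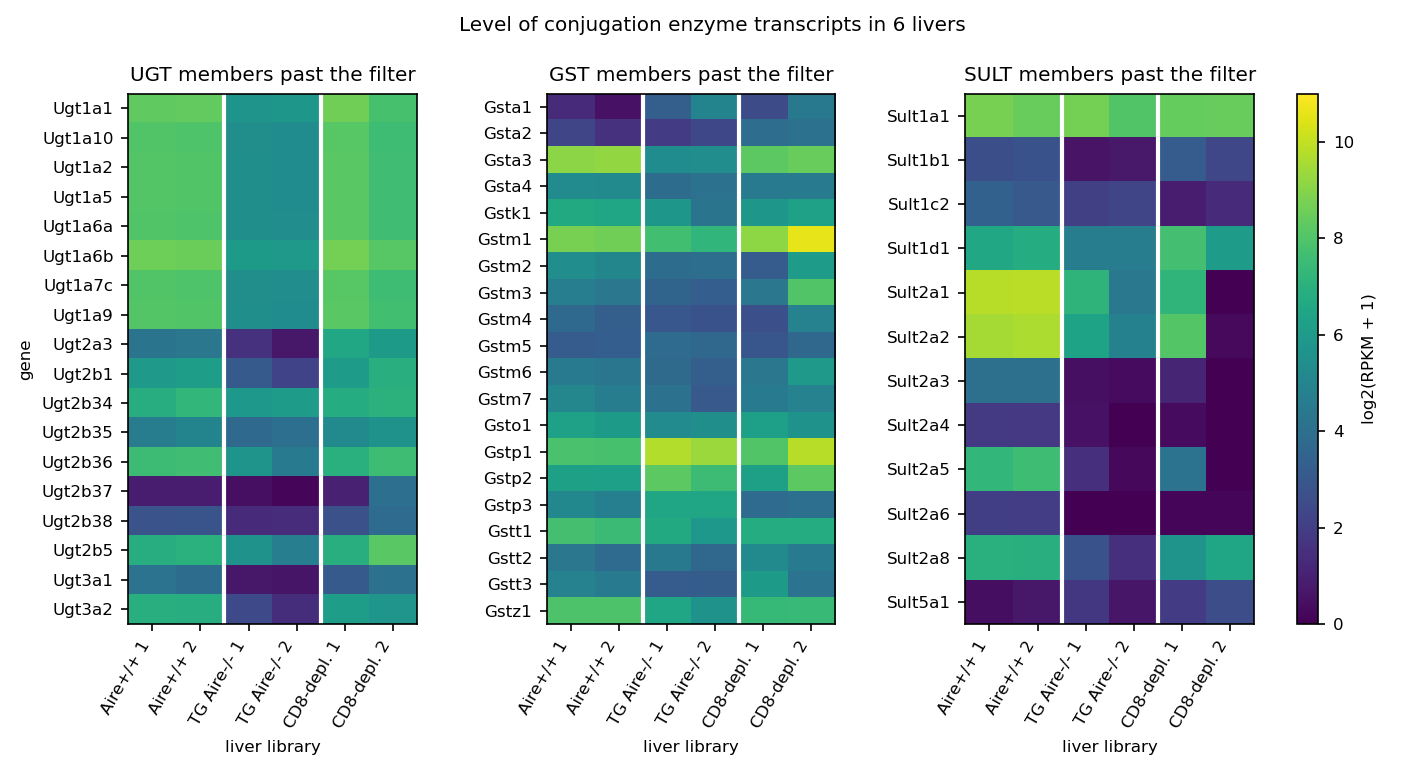
Level of the 50 tested members in each of 6 livers as log2(RPKM + 1), from 0 (dark) to 11 (light), with 1 panel per enzyme family and white lines between the 3 groups. The UGT rows, Ugt2b37 apart, are darker in both TG Aire-/- libraries than in Aire+/+ and depleted ones, and the rows Sult2a1 to Sult2a6 are dark in depleted replicate 2.

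The amount of conjugation transcripts differed by family. Summed UGT transcripts, with the Ugt1a locus taken once, were 947 and 1018 RPKM in Aire+/+, 232 and 182 in TG Aire-/-, and 949 and 1155 in depleted livers. The TG Aire-/- mean was 21.1% of the Aire+/+ mean. Both TG Aire-/- libraries lay below all others, while the Aire+/+ and depleted livers overlapped. Summed SULT transcripts were 2484 and 2539 RPKM in Aire+/+, 682 and 340 in TG Aire-/-, and 1073 and 518 in depleted livers, so that depleted livers held 31.7% of the Aire+/+ mean. The GST sum was 2179 and 2066 RPKM in Aire+/+, 1893 and 1412 in TG Aire-/-, and 1834 and 4067 in depleted livers. The TG Aire-/- mean was 77.9% of the Aire+/+ mean, a direction that turned when libraries were scaled to hepatocyte markers. Depleted replicate 2 was above every other library. Sums are given as a description and were not tested.

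**Figure D2:**
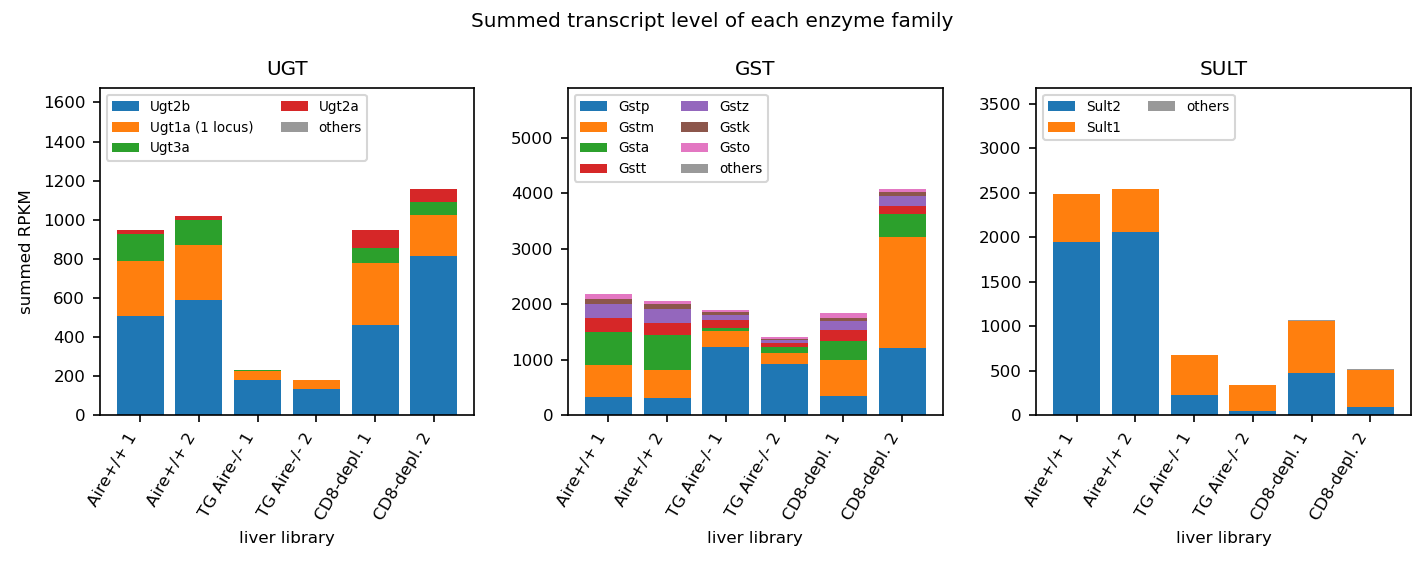
Summed RPKM of each enzyme family in each liver library, stacked by subfamily, with the 8 Ugt1a entries averaged to 1 locus. The UGT and SULT bars are low in TG Aire-/-, and the UGT bars are at 949 and 1155 RPKM in depleted livers. Gstp fills 65.3% and 65.5% of the GST bars in TG Aire-/-.

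The first comparison set TG Aire-/- against Aire+/+ livers and asks which enzymes are altered when the transgene and the Aire deletion are combined. Of the 50 members 31 fell and 3 rose (limma, Benjamini-Hochberg adjusted p under 0.05), and 16 did not pass the test. Of all genes tested 5.5% were called lower and 31.8% higher. The median difference of the members was −1.56 on the log2 scale, against 0.53 for all genes. Without the 3 members that passed the filter through 1 group, 29 of 47 fell. With the Ugt1a locus counted once, 24 of 43 fell and 3 rose. By family 17 of 18 UGT, 6 of 20 GST and 8 of 12 SULT members fell, and all 3 that rose were GSTs. With median-of-ratios scaling, which brings the median of all genes to −0.05, 12.9% of genes were called lower and 14.7% higher, and 35 members fell and 1 rose. Scaled to hepatocyte markers, 1.75% of genes were called lower and 64.5% higher, and 21 members fell and 7 rose. Leaving out either Aire+/+ library lowered the falls to 18. Rises numbered 0 without Aire+/+ replicate 2 and 1 without TG Aire-/- replicate 2. Calls of 17 members held in each of the 6 fits with a library left out and in 9 other alternatives. These were the 8 Ugt1a entries, Ugt2a3, Ugt2b1, Ugt2b36, Ugt3a1, Ugt3a2, Gsta3, Sult1b1, Sult2a3 and Sult2a8.

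**Figure D3:**
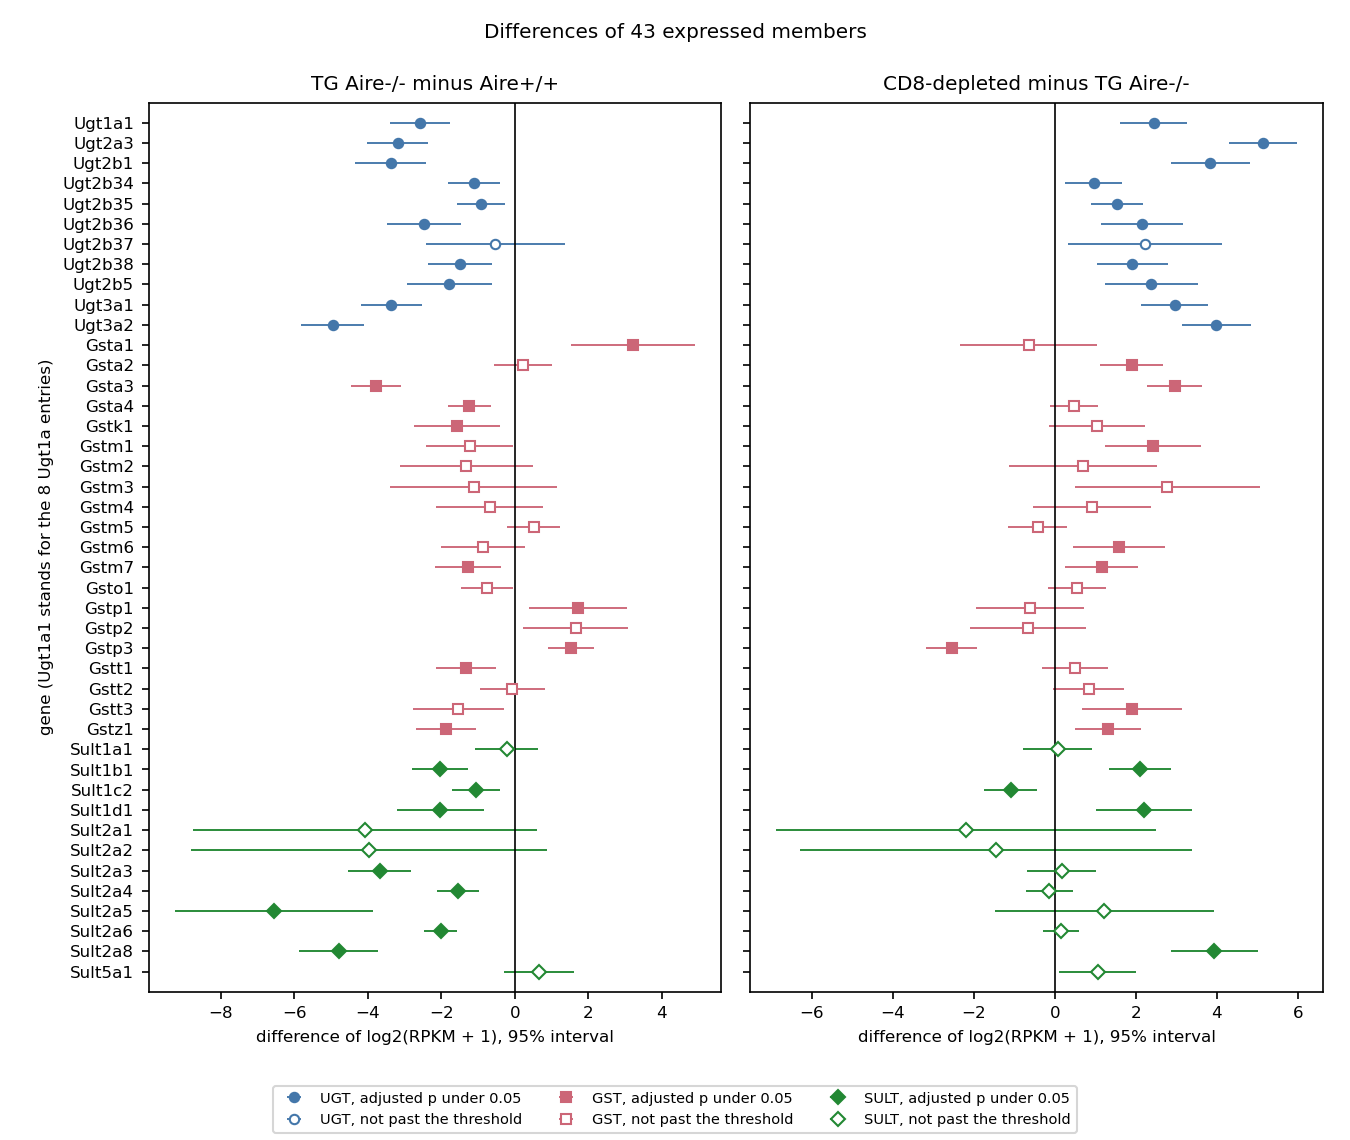
Differences of log2(RPKM + 1) with 95% intervals for 43 members (Ugt1a1 stands for its locus), TG Aire-/- minus Aire+/+ on the left and depleted minus TG Aire-/- on the right; filled symbols passed an adjusted p of 0.05. On the left 24 filled symbols lie below 0 and 3 above it, and on the right every UGT symbol lies above 0.

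Among UGTs, Ugt1a1 is the bilirubin-conjugating enzyme. Ugt1a1 (GRCm38 chr1:88211959-88218997) stood at 316 and 328 RPKM in Aire+/+, at 50.1 and 56.0 in TG Aire-/-, and at 387 and 220 in depleted livers. The TG Aire-/- libraries were the lowest and overlapped with no other. The fall was 6.07-fold on means, or −2.58 ± 0.35 (SE) on the log2 scale (limma adjusted p = 0.00293). The 8 Ugt1a entries, among them Ugt1a5, Ugt1a6a, Ugt1a6b and Ugt1a9, lay between 248 and 376 RPKM in Aire+/+, between 39.8 and 62.6 in TG Aire-/- and between 189 and 414 in depleted livers, and fell by 2.56 to 2.61 on the log2 scale. Ugt3a2 and Ugt3a1 belong to a small family that uses other sugars than glucuronic acid. Ugt3a2 was at 122 and 115 RPKM in Aire+/+, 4.44 and 1.74 in TG Aire-/- and 69.1 and 52.6 in depleted livers. Its fall of 38.5-fold on means (−4.95 ± 0.37, limma adjusted p = 0.00142) was the largest of the UGTs. Ugt3a1 went from 17 and 13.9 RPKM to 0.656 and 0.548, and stood at 7.79 and 16.5 after depletion.

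The Ugt2 genes conjugate steroids and bile acids. Ugt2a3 was at 18.1 and 19.9 RPKM in Aire+/+ and at 1.94 and 0.640 in TG Aire-/- (−3.18 ± 0.36, limma adjusted p = 0.00207). In depleted livers it stood at 94.0 and 62.4 RPKM, above every other library. Ugt2b1 was at 60.3 and 69.1 RPKM in Aire+/+, 7.71 and 3.58 in TG Aire-/- and 65.1 and 122 in depleted livers. Of the 7 Ugt2b genes 6 fell, by 0.92 (Ugt2b35) to 3.38 (Ugt2b1) on the log2 scale. Ugt2b5 lost its call without either Aire+/+ library or TG Aire-/- replicate 2 (adjusted p up to 0.175). Ugt2b34, Ugt2b35 and Ugt2b38 lost theirs when any library of the compared groups was left out, with adjusted p up to 0.243, 0.268 and 0.101. These 4 genes also lost their calls when libraries were scaled to hepatocyte markers. Ugt2b37 was low everywhere but in depleted replicate 2, at 0.783 and 0.769, 0.353 and 0.126, and 1.03 and 15.4 RPKM, and did not pass the test.

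GSTs moved in both directions. The promoters of Gsta3, which fell, and of Gstp1 and Gstp2 are shown for motifs they hold. Gsta3 holds an antioxidant response element core (TGACNNNGC, a binding core of NRF2). Gstp1 and Gstp2 hold an AP-1 site (TGAGTCA, bound by Jun and Fos). There gc follows the site, so the stretch differs from TGACNNNGC only by a G in place of the first C. Binding was not tested for any of these motifs. Printed are the 150 bases upstream of the start at chr1:21240435-21240584 (plus strand), chr19:4037913-4038062 and chr19:4042222-4042371 (both minus), from RefSeq on GRCm38.p6. Capitals mark these motifs.
Gsta3: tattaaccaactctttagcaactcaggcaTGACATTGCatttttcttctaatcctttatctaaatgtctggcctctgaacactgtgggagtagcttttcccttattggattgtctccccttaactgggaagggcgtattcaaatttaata
Gstp1: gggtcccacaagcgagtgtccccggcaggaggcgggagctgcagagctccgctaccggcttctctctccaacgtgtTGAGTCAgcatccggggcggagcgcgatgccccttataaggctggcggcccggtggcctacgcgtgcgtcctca
Gstp2: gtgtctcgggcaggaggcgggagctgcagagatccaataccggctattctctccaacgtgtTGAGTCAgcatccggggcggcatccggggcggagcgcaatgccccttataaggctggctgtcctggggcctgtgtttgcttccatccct

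Gsta3 is an abundant alpha-class enzyme of mouse liver known for detoxifying aflatoxin epoxide. It stood at 539 and 595 RPKM in Aire+/+, 40.0 and 41.3 in TG Aire-/- and 301 and 346 in depleted livers, with no overlap among the 3 groups. Its fall was 14-fold on means (−3.77 ± 0.29, limma adjusted p = 0.00142). Its share of the GST sum went from 24.7% and 28.8% to 2.11% and 2.93%. Gstz1, which acts in tyrosine breakdown, fell from 243 and 245 RPKM to 88.6 and 49.4, and stood at 164 and 170 after depletion. Gstt1, a theta-class enzyme, fell from 216 and 178 RPKM to 103 and 58.1 and was at 110 in both depleted livers. Gstk1, the mitochondrial and peroxisomal kappa enzyme, was at 102 and 88.6 RPKM, then 55.5 and 17.6, then 55.7 and 77.7. Gstm7, a mu-class gene, was at 33 and 23.9 RPKM in Aire+/+, 16.2 and 7.33 in TG Aire-/- and 23.1 and 28.6 in depleted livers. Gsta4, which clears the lipid peroxidation product 4-hydroxynonenal, and Gstm7 also fell, by 1.23 and 1.28 on the log2 scale. Of these 6 only Gsta3 kept its call without either Aire+/+ library, and the falls among GSTs then numbered 1. They numbered 3 without TG Aire-/- replicate 2 and 11 without either depleted library. They numbered 10 with median-of-ratios scaling, 2 with scaling to hepatocyte markers and 11 with only the 2 groups fitted.

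The pi-class genes and Gsta1 were the exceptions. Gstp1, the main pi enzyme, was at 229 and 220 RPKM in Aire+/+, 846 and 652 in TG Aire-/- and 259 and 902 in depleted livers. It rose by 1.72 ± 0.57 on the log2 scale, close to the threshold (limma adjusted p = 0.0486). The call was lost without any 1 of the Aire+/+ or TG Aire-/- libraries (adjusted p up to 0.188), with median-of-ratios scaling, with no filter, with the replicate block and with sex as a covariate, and had an adjusted p of 0.00644 with only those 2 groups fitted. Gstp2, its neighbour, was at 75.9 and 71.9 RPKM in Aire+/+, 302 and 185 in TG Aire-/- and 74.3 and 300.1 after depletion. Its difference of 1.66 did not pass the test (limma adjusted p = 0.0671) and passed when only the 2 groups were fitted (0.00989). Gstp3 was at 34.4 and 25.5 RPKM, then 87.3 and 88.1, then 13.4 and 15. It rose by 1.53 ± 0.27 (limma adjusted p = 0.00597), a call lost without Aire+/+ replicate 2 (0.0787) and with median-of-ratios scaling. All 3 pi genes had higher values in TG Aire-/- under each scaling tried. Gsta1, an alpha enzyme that is low in resting liver, went from 1.47 and 0.447 RPKM to 9.03 and 30.3, and was at 4.82 and 21.1 after depletion. It rose by 3.23 (limma adjusted p = 0.0135), a call lost without Aire+/+ replicate 2 or TG Aire-/- replicate 2 (adjusted p up to 0.110).

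The pi class filled 15.6% and 15.4% of the GST sum in Aire+/+, 65.3% and 65.5% in TG Aire-/-, and 18.9% and 29.9% in depleted livers. The mu class took 26.2% and 24.4%, then 14.7% and 14.6%, then 35.0% and 49.1%. Gstm1, the most abundant mu gene, was at 429 and 392 RPKM in Aire+/+ and 204 and 148 in TG Aire-/-. That difference did not pass the test with all 3 groups fitted (−1.23, limma adjusted p = 0.0917), and did with only the 2 groups (0.0182). Gsto1, the omega enzyme, did not pass at 77.9 and 62.8, 39.0 and 43.3, and 73.8 and 49.1 RPKM. The remaining GSTs tested, which were Gsta2, Gstm2 to Gstm6, Gstt2 and Gstt3, did not pass in this comparison.

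Sult2a genes, which lie in a cluster on chromosome 7, sulfate hydroxysteroids and bile acids and made up most of the SULT transcripts of wild type. Promoters of Sult2a3 (chr7:14123049-14123198, minus strand) and Sult2a5 (chr7:13623817-13623966, plus strand) are shown because both genes lost nearly all their transcripts and resemble each other there. They are 150 bases long, from RefSeq on GRCm38.p6, and capitals mark the longest run that both share, 28 bases. Their windows of 300 bases are identical at 75.9% of aligned positions.
Sult2a3: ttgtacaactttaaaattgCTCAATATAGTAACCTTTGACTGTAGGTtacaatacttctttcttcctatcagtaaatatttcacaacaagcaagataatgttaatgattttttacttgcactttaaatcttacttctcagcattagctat
Sult2a5: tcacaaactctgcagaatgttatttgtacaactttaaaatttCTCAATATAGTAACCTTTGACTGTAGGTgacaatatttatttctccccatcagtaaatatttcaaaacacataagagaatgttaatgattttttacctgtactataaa

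Sult2a1 was at 914 and 936 RPKM in Aire+/+, at 142 and 20.2 in TG Aire-/-, and at 145 and listed at 0 in depleted livers. Sult2a2 was at 736 and 795, then 81.8 and 27.8, then 267 and 0.205 RPKM. Both were lower in each TG Aire-/- library than in each Aire+/+ library, by 4.07 and 3.97 on the log2 scale. Neither passed the test with all 3 groups fitted (limma adjusted p = 0.142 and 0.162), where the wide spread of the depleted pair enters the error. With only the 2 groups fitted, both passed (adjusted p = 0.0137 and 0.00358), as they did without either depleted library. Sult2a5 went from 154 and 191 RPKM to 1.80 and 0.188 and was at 17.2 and listed at 0 after depletion. It fell by 6.56 ± 1.16 (limma adjusted p = 0.00603), the largest fall of any member on this scale, a call lost without TG Aire-/- replicate 2 (0.0704). Sult2a3 fell from 15.9 in both Aire+/+ livers to 0.386 and 0.257 RPKM (−3.68 ± 0.37, limma adjusted p = 0.00189). Sult2a4 and Sult2a6, at 2.5 to 3.16 RPKM in wild type, were at most 0.461 RPKM in TG Aire-/- livers and were called lower, having passed the filter through the wild-type livers alone.

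Sult2a8, a more distant member of the cluster that sulfates bile acids, fell from 124 and 121 RPKM to 5.91 and 1.89 (−4.79 ± 0.46, limma adjusted p = 0.00184). It was at 50.2 and 90.9 RPKM in depleted livers. Of the Sult1 genes, Sult1d1, an amine sulfotransferase, fell from 95.5 and 110 RPKM to 24.2 and 24.4, a call lost without any 1 of those 4 libraries (adjusted p up to 0.113), and was at 207 and 64 after depletion. Sult1b1, which acts on thyroid hormones and phenols, fell from 5.29 and 5.83 to 0.497 and 0.708 RPKM and was at 8.33 and 4.03 after depletion (−2.04 ± 0.33, limma adjusted p = 0.00470). Sult1c2 fell from 9.61 and 7.41 to 3.20 and 3.95 RPKM, a call lost without any 1 of those 4 libraries (adjusted p up to 0.198), with no filter and with hepatocyte scaling. Sult1a1, the main phenol sulfotransferase, did not pass the test. It was at 423 and 350 RPKM in Aire+/+, 418 and 259 in TG Aire-/- and 340 and 351 in depleted livers, and its groups overlapped. Its difference was −0.22 with a 95% interval of −1.07 to 0.62 (limma adjusted p = 0.643), and turned to 0.03 with quantile normalization and 0.77 with hepatocyte scaling. Sult2a genes filled 78.5% and 81.3% of the SULT sum in Aire+/+ and 34.1% and 14.8% in TG Aire-/-, where Sult1a1 alone took 61.3% and 76.2%. SULT falls numbered 8, and 6 without Sult2a4 and Sult2a6, 4 without either Aire+/+ library and 5 without TG Aire-/- replicate 2. Sult5a1 was at 0.318 to 5.13 RPKM in the 6 livers and did not pass, with an estimate above 0 (0.66).

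**Figure D4:**
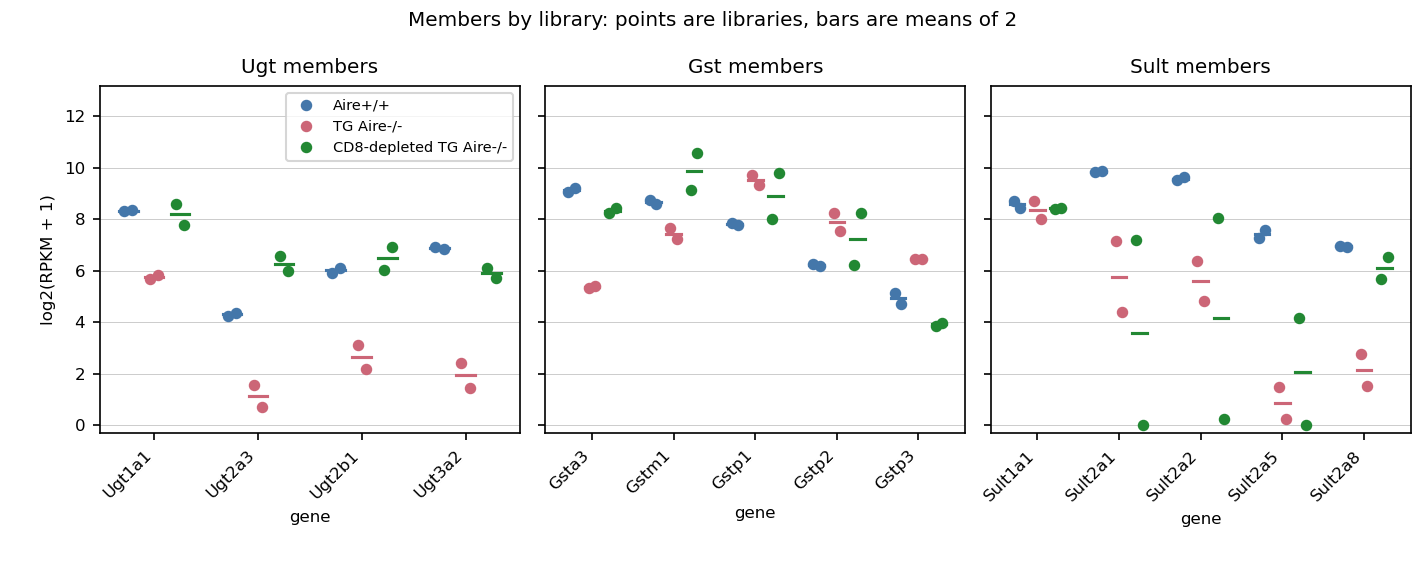
Level of 14 members in each library as log2(RPKM + 1), with points for libraries and short bars for means of 2. The Ugt members and Gsta3 are low in TG Aire-/- and higher in depleted livers, and the Gstp members are high in TG Aire-/-. The groups of Sult1a1 overlap, and the depleted points of Sult2a1, Sult2a2 and Sult2a5 lie far apart.

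Markers of several other cell types were higher in TG Aire-/- livers, where 31.8% of all genes were called higher. All 9 tested T cell markers were called higher (summed level 2.41 to 2.74 RPKM in Aire+/+ and 34.7 to 58.3 in TG Aire-/-). So were 8 of 9 macrophage, 5 of 5 neutrophil, 6 of 6 endothelial, 5 of 8 stellate and 5 of 6 erythroid markers. Of cholangiocyte markers 2 of 8 were called higher, a share below that of all genes, and of B cell markers 0 of 2. Erythroid markers summed to 1080 to 1252 RPKM in Aire+/+ and to 9307 to 15966 in TG Aire-/-. The 10 pericentral hepatocyte markers, genes of the zone around the central vein, were all called lower, with summed levels of 4881 and 4933 RPKM against 179 and 185. Of 8 periportal markers 1 was lower and 1 higher. Of 4 tested markers of the fetal hepatocyte state 3 were called higher: Afp, the fetal counterpart of albumin, was at 6.27 and 4.69 RPKM in Aire+/+ and at 523 and 742 in TG Aire-/-, and Gpc3 and Igf2 rose by 2.10 and 1.55. H19 had an estimate below 0 and did not pass (−1.16, limma adjusted p = 0.0961). The part of these cells and states in the falls was not tested.

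The second comparison set depleted against undepleted TG Aire-/- livers and asks what changed when CD8+ T cells were removed. Of 50 members 27 rose, 2 fell and 21 did not pass the test. Of all genes 4.49% were called higher and 33.5% lower, and the medians were 1.56 for the members and −0.58 for all genes. Rises numbered 17 of 18 for UGTs, 7 of 20 for GSTs and 3 of 12 for SULTs, and the falls were Gstp3 and Sult1c2. With the Ugt1a locus taken once, 20 rose and 2 fell. With median-of-ratios scaling 10.7% of genes were called higher and 13% lower, and 32 members rose and 1 fell. Scaled to hepatocyte markers, 2.14% were called higher and 48.1% lower, and 23 members rose and 5 fell. Without TG Aire-/- replicate 2 the rises numbered 17. The falls ranged from 1 to 4 as each library was left out, with 1 without either Aire+/+ library or without TG Aire-/- replicate 2, 3 without depleted replicate 1 and 4 without depleted replicate 2. This comparison shares the TG Aire-/- libraries with the first, so a high or low value there moves both in opposite directions.

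Ugt2a3 had the largest rise, 5.14 ± 0.36 on the log2 scale (limma adjusted p = 0.000876), to above both wild-type libraries. Its difference from Aire+/+ did not pass the test (1.96, limma adjusted p = 0.0832). Ugt3a2 rose by 3.99, Ugt2b1 by 3.84 and Ugt3a1 by 2.96. Ugt1a1 rose by 2.44 ± 0.35 (limma adjusted p = 0.00350). Sult2a8 rose by 3.94 and Gsta3 by 2.96 ± 0.29 (limma adjusted p = 0.00171). These calls held when each library was left out in turn. Ugt2b34 rose by 0.96, a call lost whichever library was left out (adjusted p up to 0.108) and with sex as a covariate. Ugt2b5, Ugt2b36 and Ugt2b38 rose by 2.38, 2.15 and 1.91, calls lost without TG Aire-/- replicate 2 (adjusted p up to 0.0836).

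Mu-class GSTs differed widely between the depleted libraries. Gstm1 was at 559 RPKM in depleted replicate 1 and 1549 in replicate 2, and rose by 2.41 ± 0.51 (limma adjusted p = 0.0111, and 0.0804 without TG Aire-/- replicate 2). Gstm3 was at 24.7 and 19.7 RPKM in Aire+/+, 10.6 and 8.72 in TG Aire-/-, and 19.6 and 256 in depleted livers, and did not pass. Gsta2 rose by 1.90, from 2.76 and 4.29 RPKM to 14.4 and 16.9, a level above both Aire+/+ libraries at 3.95 and 1.94. The difference of depleted from Aire+/+ livers did not pass for Gsta2 (2.12, limma adjusted p = 0.0516). Gstt3, a theta-class gene, was at 28.4 and 23.1 RPKM in Aire+/+, 8.08 and 8.34 in TG Aire-/- and 63.6 and 17.5 in depleted livers. Gstm6, Gstm7, Gstt3 and Gstz1 rose, by 1.16 to 1.91, and each lost its call with sex as a covariate and without TG Aire-/- replicate 2. Rises of GSTs numbered 2 without TG Aire-/- replicate 2 and 4 without either Aire+/+ library. Among pi genes Gstp3 fell by 2.55 ± 0.27 (limma adjusted p = 0.00187), while Gstp1 and Gstp2 did not pass. Without depleted replicate 2 they were lower than TG Aire-/- by 1.52 and 1.66 (adjusted p = 0.0182 and 0.0201), and without replicate 1 they were higher by 0.28 and 0.34 (0.560 and 0.520).

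Among Sult2a genes only Sult2a8 was called higher than in TG Aire-/-. Sult2a3, Sult2a4, Sult2a5 and Sult2a6 did not pass the test, and their highest depleted values were 1.20, 0.241, 17.2 and 0.133 RPKM. Sult2a4 and Sult2a6 passed the filter through the Aire+/+ livers alone and are no support. For Sult2a3 and Sult2a5 depleted replicate 1 was above both TG Aire-/- libraries and replicate 2 was listed at 0. The direction of their difference from TG Aire-/- therefore cannot be told. Sult2a2 differed by 2.46 from TG Aire-/- without depleted replicate 2 (adjusted p = 0.0265) and by −5.34 without depleted replicate 1 (0.0108), so its direction rests on that pair. Sult1b1 rose by 2.10. Sult1d1 rose by 2.20, a call lost without either TG Aire-/- library (adjusted p up to 0.0919). Sult1c2 fell by a further 1.09 to 0.822 and 1.53 RPKM (limma adjusted p = 0.0221), a call lost with sex as a covariate, with no filter, with 2 of the scalings and without either Aire+/+ library, TG Aire-/- replicate 2 or depleted replicate 1 (adjusted p up to 0.0949).

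Of the 4 tested markers of the fetal hepatocyte state all but H19 were higher in TG Aire-/-, and all were lower after depletion. Afp, H19, Igf2 and Gpc3, which are switched off as liver matures after birth, summed with Dlk1 to 511 and 671 RPKM in Aire+/+, 1012 and 978 in TG Aire-/- and 9.24 and 13.4 in depleted livers. All 4 tested were lower than in TG Aire-/-, and 2 of them (H19 and Gpc3) were lower than in Aire+/+, while Dlk1 was at most 0.0539 RPKM anywhere. H19 was at 487 and 644 RPKM in Aire+/+, 408 and 153 in TG Aire-/- and 7.53 and 11.6 in depleted livers, with no overlap of the depleted pair with the rest. Lower after depletion were also 9 of 9 T cell, 6 of 6 endothelial, 6 of 8 stellate, 5 of 9 macrophage and 5 of 6 erythroid markers. So were 2 of 5 neutrophil, 3 of 8 cholangiocyte and 0 of 2 B cell markers, against 33.5% of all genes. The neutrophil and cholangiocyte counts are near that share and are no result about those cells. Higher were 8 of 10 pericentral, 4 of 8 periportal and 1 of 14 hepatocyte markers, against 4.49% of all genes. The part of these markers, and of a difference in maturity among livers, in the rises of UGTs was not tested.

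The third comparison set depleted against Aire+/+ livers, sharing samples with both others. Of 50 members 46 did not pass the test, 4 were lower and 0 higher. An unadjusted limma p under 0.05 was found for 16 of them and for 1327 of the 12231 genes tested. Of all genes 0.327% were called lower and 0.221% higher. The 4 were Sult2a3 (−3.51, limma adjusted p = 0.0121), Sult1c2 (−2.14, 0.0282), Sult2a6 (−1.86, 0.0110) and Sult2a4 (−1.69, 0.0405). Sult2a4 and Sult2a6 passed the filter only through the Aire+/+ livers, and 2 called members are left without them. None was called with sex as a covariate or with only the 2 groups fitted, and the count of lower members was 0 without either TG Aire-/- library, 1 without either Aire+/+ library or depleted replicate 2, and 5 without depleted replicate 1. The count of higher members was 1 without depleted replicate 1. For Ugt1a1 the difference was −0.14 with a 95% interval of −0.97 to 0.68, so a 2-library group leaves room for a change in either direction. Sult2a5 was 20.1-fold lower on means and did not pass (limma adjusted p = 0.136).

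Genes that feed or serve the 3 reactions were counted from lists of known pathway members. Counts are to be read against all genes, of which 5.5% were called lower and 31.8% higher in TG Aire-/-, and 33.5% lower and 4.49% higher after depletion. No list was tested against these shares, and a count near them is no result about the list. Of 5 genes for UDP-glucuronic acid supply and glucuronide turnover 0 were lower and 1 was higher in TG Aire-/-: Gusb, the lysosomal glucuronidase that removes glucuronic acid, rose by 0.87. Ugdh and Ugp2, which make UDP-glucuronic acid, did not pass. Of 8 genes for PAPS supply and sulfate handling 3 were lower and 1 higher. Papss2, the PAPS synthase of liver, was at 51.8 and 74.3 RPKM in Aire+/+, 21.4 and 15.4 in TG Aire-/- and 56.1 and 42.3 in depleted livers. It fell by 1.72, the sulfate carrier Slc26a1 by 1.98 and the sulfite oxidase Suox by 2.01, while the PAPS transporter Slc35b3 rose by 0.93. Against TG Aire-/-, 2 of the 8 were higher and 1 lower after depletion.

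Of 18 genes for glutathione synthesis and turnover 3 were lower and 3 higher in TG Aire-/-. Mat1a and Cbs, which route methionine towards cysteine, fell by 1.66 and 1.56, and the dipeptidases Dpep1 and Dpep2 rose by 1.91 and 2.01. Gclc and Gclm, the subunits of the rate-limiting synthesis enzyme, did not pass. Of 3 microsomal glutathione transferases, which are not related in sequence to the soluble GSTs, Mgst2 and Mgst3 rose by 2.31 and 0.92. Mgst1, by far the most abundant, was at 1010 and 806 RPKM in Aire+/+, 424 and 313 in TG Aire-/- and 619 and 1441 in depleted livers. Its estimate lay below 0 and did not pass (−1.31, limma adjusted p = 0.0675). Of 14 enzymes that attach methyl, acetyl or amino acid groups 5 were lower and 0 higher, and 7 were higher after depletion. Gnmt, the glycine methyltransferase, was at 1005 and 656 RPKM in Aire+/+, 104 and 84.3 in TG Aire-/- and 996 and 451 in depleted livers. It fell by 3.10 and Slc27a5, a bile acid CoA ligase, fell by 2.66, and the acyl-CoA synthetases Acsm5 and Acsm1 by 2.21 and 2.12. The median of that list was −1.19, against 0.53 for all genes.

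Of 9 conjugate efflux transporters 1 was lower (Abcc6, by 2.30) and 3 were higher in TG Aire-/- (Abcc1 by 1.85, Abcc5 by 1.53 and Abcc4 by 1.21). The count of 3 is near the 31.8% of all genes called higher and is no result about the list. After depletion 4 were lower and 1 higher (Abcc6). Of 16 nuclear receptors and liver transcription factors 5 were lower and 1 higher. Nr1i3, which encodes CAR, was at 66.6 and 57.3 RPKM in Aire+/+, 9.02 and 8.38 in TG Aire-/- and 47.8 and 41.4 in depleted livers. It was lower by 2.69 in TG Aire-/- (limma adjusted p = 0.00184) and was called higher in depleted than in TG Aire-/- livers. Nr1h4 (FXR) was called in the same 2 directions, by 0.79 each. Nr0b2 (SHP) and Cebpa fell by 1.92 and 1.73 and Onecut1 rose by 1.68. Hnf4a, Ahr and Nr1i2 (PXR) did not pass. Of 17 genes of the NRF2 axis that are no GST members 0 were lower and 7 higher, and 5 were lower after depletion. Hmox1, heme oxygenase, was at 13.9 and 11.9 RPKM in Aire+/+, 125 and 307 in TG Aire-/- and 11.2 and 23.2 in depleted livers. It rose by 3.83, and G6pdx, Pgd and Srxn1, which supply or use reducing power, rose by 2.51, 2.06 and 2.03, while Nqo1 did not pass.

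Motifs were counted in promoter windows of 300 bases, 250 before and 50 after the start, on both strands. RefSeq windows on GRCm38.p6 matched 53 of 61 members, and those of Ugt1a6b, Ugt3a2, Gsta4, Gstt2, Sult2a1, Sult2a2, Sult2a7 and Sult4a1 were not used. The HNF4 site CAAAGGTCA was in 0 members and in 0.544% of all 27025 genes. The core TGACNNNGC was in 3 members (5.66%: Gsta3, Gstm5 and Gstm7), against 14% of all genes. A form with G in place of the first C, as in Gstp1 and Gstp2, was not counted. TGAGTCA, a motif added after the sequences were seen and able to overlap TGACNNNGC, was in 8 members (15.1%), against 5.95%. Gstp3, whose window is identical to that of Gstp1 at 50.7% of aligned positions, has no TGAGTCA there, while Gstp2 is identical at 77.1%. The AHR core GCGTG was in 10 members (18.9%), against 35.2%. A match describes letters and is not evidence of binding.

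Levels in other samples of the series were described within their own tables, with no test. In liver CD8+ T cells, with a single library (1) for every genotype (Aire-/-, then TG Aire+/-, then TG Aire-/-), 8 members reached 1 RPKM in all 3 libraries: Gstm1, Gsto1, Gstp1, Gstp2, Gstp3, Gstt2, Gstz1 and Sult2b1. Gstp1 was at 89.8, 111 and 335 RPKM in that order, and Gsto1 at 16.5, 12.2 and 74.5. The pi class made up 75.5% to 85.3% of the GST sum. In 9 thymus libraries 13 members reached 1 RPKM throughout, and the pi share was 68.1% to 80.2%. UGT members were low in both. Over the 20 genes they summed to 1.09 to 17.9 RPKM in CD8+ T cells and 2.45 to 23.8 in thymus. However, 9 of them reached 1 RPKM in the Aire-/- CD8+ T library and 8 in 1 thymus library (TG Aire-/- replicate 1). These sums and counts take the 8 Ugt1a entries singly, although they act as 1 measurement. The 8 entries were at 1.56 to 2.81 RPKM in that CD8+ T library, and Ugt1a1 was at 2.79 in that thymus library. The pi class led the GST sum in these lymphoid samples and in the TG Aire-/- livers. The part of infiltrating cells in the liver values was not tested.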

How the data were processed

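Bulk RNA-seq values of 18 of 22 samples were used, and 4 livers without a batch number were not analysed here. The authors deposited RPKM values in 3 tables of 24786 genes (liver, thymus and CD8+ T cells). Per the submitters' processing notes, the build was mm10 and STAR 2.5.2b was among the tools; which annotation, counting tool and strand setting were used is not given in the sources used here. Libraries were prepared by Illumina or BGI protocols, per the labels' protocols, without saying which sample had which. RPKM is a share of each library, so abundant transcripts of other cells lower the rest. The number of reads per library was estimated from how finely low values are spaced; only 41.1% to 47.0% of low values were whole reads within 0.1 read (chance gives 20%), so no count test was run. At that depth 3 reads on 2000 bases equal 0.0661 to 0.0739 RPKM, counting error only. Groups came from the sample titles.

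The 6 livers entered 1 fit with limma 3.58.1 in R 4.3.3 (lmFit, eBayes with trend, two-sided) on log2(RPKM + 1), for genes at 1 RPKM or more in at least 2 livers, without covariates. P-values were adjusted by Benjamini-Hochberg over 12231 genes per comparison, and values under 0.05 were called. Because 1 is added before the logarithm, differences of weakly expressed members come out too small. The procedure was run on simulated data in which few genes changed and no shift over all genes was set. The livers differ in both respects, so that run does not vouch for the calls made here. The members, lists, rule for named genes and alternatives were chosen with earlier results of these data known. Named were, per family, the 5 most abundant members, the 5 largest falls and 5 largest rises in TG Aire-/-, the 4 largest changes after depletion, single expressed members of a subfamily and up to 4 called genes per pathway list. Other members were added by name after their values were seen. Alternatives were another pseudocount, no filter, 3 scalings, eBayes without trend, a fit of just 2 groups, a replicate block, sex as a covariate and each library left out. Gene positions are from GENCODE vM21 on GRCm38, the assembly that mm10 names; promoters are from RefSeq. Some planned motif searches and a gene of the transcription factor list are not reported here.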

Additional observations from a re-analysis of the deposited data

How the results depend on the processing

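In TG Aire-/- against Aire+/+, 31 members were lower, with 18 to 38 as each library was left out. The 3 higher members became 1 with median-of-ratios scaling and 7 scaled to hepatocyte markers, with 0 to 4 as libraries were left out. In depleted against TG Aire-/-, the 2 lower members became 1 with median-of-ratios scaling, quantile normalization or sex as a covariate and 5 scaled to hepatocyte markers, with 1 to 4 as libraries were left out, and the 27 higher ones ranged from 17 to 27. In depleted against Aire+/+, the 4 lower members became 2 with a pseudocount of 0.1, 1 with no filter, and 0 with only the 2 groups fitted or with sex as a covariate, with 0 to 5 as libraries were left out. There the 0 higher members became 1 with each of the 3 scalings, with 0 to 1 as libraries were left out. Family sums are given as log2 ratios. The UGT ratio of TG Aire-/- to Aire+/+ was −2.24, and −2.93 with median-of-ratios and −1.25 with hepatocyte scaling. That of depleted to TG Aire-/- was 2.34, and 3.10, 2.68 and 1.71 with median-of-ratios, quantile and hepatocyte scaling. That of depleted to Aire+/+ was 0.10, and 0.47 with hepatocyte scaling, with −0.050 to 0.23 as libraries were left out. The GST ratio of TG Aire-/- to Aire+/+ was −0.36, and −1.05 with median-of-ratios and 0.63 with hepatocyte scaling, and that of depleted to Aire+/+ was 0.48, with −0.21 to 0.94 as libraries were left out. The SULT ratio of TG Aire-/- to Aire+/+ was −2.30, and −1.38 with hepatocyte scaling. Sult1a1 turned from −0.22 to 0.026 with quantile normalization and 0.77 with hepatocyte scaling (−0.57 to 0.12 as libraries were left out). Ugt1a1 in depleted against Aire+/+ turned from −0.14 to 0.035 and 0.24 with the same 2 settings (−0.55 to 0.26 as libraries were left out). The cause of these changes was not tested. Fits with a library left out have fewer residual degrees of freedom, and the lone sample is assumed to vary like the others.

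A fit with a replicate block called 34, 30 and 4 members in the 3 comparisons, against 34, 29 and 4 without it. Deviations of same-numbered libraries correlated at 0.29, −0.09 and −0.15 for the 3 pairs of groups, so the numbers were not treated as pairing the samples.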

Other observations

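The 2 depleted livers differed from each other in more members than the pairs of the other groups. Of the 50 tested members 17 were at least 1 log2 unit apart between the depleted libraries, 9 between the TG Aire-/- libraries and 0 between the Aire+/+ libraries. The median absolute differences were 0.63, 0.27 and 0.13. Over all genes tested the standard deviation of the difference within each pair was 0.65, 0.62 and 0.28 in the same order. The share of all genes at least 1 log2 unit apart was not counted, so these counts are no result about the members in particular. The members below were chosen after their values were seen. Depleted replicate 1 was the higher one for Sult2a1 (145 RPKM against a value listed at 0), Sult2a2 (267 against 0.205) and Sult2a5 (17.2 against a value listed at 0). It was also the only liver with more than 1 RPKM of Sult3a1, an amine sulfotransferase (14.5 RPKM, against 0.0506 in replicate 2 and a value listed at 0 in the other 4 livers), and of Sult1e1, the estrogen sulfotransferase (18.9 RPKM, against 0.0332 to 0.743 in the other 5). Replicate 2 was the higher one for Gstm3 (256 against 19.6 RPKM), Gstm2 (64.3 against 8.07), Gstm4 (28.5 against 5.46), Ugt2b37 (15.4 against 1.03), Gstp2 (300.1 against 74.3) and Gstp1 (902 against 259). In adult mouse liver Sult2a1, Sult2a2 and Sult3a1 are known as female-predominant and Gstp1 and Gstp2 as male-predominant. Both depleted libraries were male by Y-linked genes. In the male and female Aire+/+ livers Sult2a1 was at 914 and 936 RPKM and Gstp1 at 229 and 220. In the male and female TG Aire-/- livers Sult2a1 was at 142 and 20.2 RPKM and Gstp1 at 846 and 652. The part of sex in these differences was not tested. Markers of other cells also differed within the pair: summed levels in replicates 1 and 2 were 170 and 575 RPKM for macrophages, 74.0 and 299 for neutrophils and 22.7 and 108 for cholangiocytes. Their part in the differences of the members was not tested.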
